A study of Homo sapiens with 16 samples.

Results

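The genes described here are 5 components of the plasminogen activator system, PLAU, PLAUR, PLAT, SERPINE2 and SERPINB2, taken from the deposited intensity data by gene symbol. Each gene had 1 probe, so that the members are 5 of 20589 probe rows and 5 of 18190 symbols, and all 5 rows held a single probe. The cells were MCF10A, an immortalized human breast epithelial line that is not transformed, grown in Ham's F-12 medium with insulin, hydrocortisone and epidermal growth factor. They were treated with a selective inhibitor of the HER2 kinase at 1 µM, and RNA was taken every 3 hours up to 45 hours from parallel cultures. The 0 hour sample was untreated, and the other 15 samples were treated for 3 to 45 hours. Each of the 16 time points had 1 array (Illumina human Ref8v2) and no replicate, and no untreated culture was carried along in parallel, so that inhibitor, time in culture and the fresh medium given with the inhibitor cannot be told apart. The question was how expression of this system changed with time under the inhibitor.

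Plasmin is a serine protease that degrades fibrin and, directly or by activating other proteases, the pericellular matrix. It is made from circulating plasminogen by either of the activators, urokinase (uPA, encoded by PLAU) and tissue plasminogen activator (tPA, encoded by PLAT). The urokinase receptor uPAR, encoded by PLAUR, is anchored in the membrane by glycosylphosphatidylinositol and holds urokinase at the cell surface, where it signals through integrins and other partners. The serpins encoded by SERPINE2 (protease nexin 1) and SERPINB2 (PAI-2) inhibit the activators. In breast epithelium the system is known for its part in migration, tissue remodeling and invasion.

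PLAU, PLAUR and SERPINE2 were detected on all 16 arrays, with a detection p under 0.05, and changed with time. PLAUR rose within the first 3 hours and then stayed high. PLAU peaked at 6 to 9 hours, peaked again at 24 hours and was at its lowest from 36 hours on. SERPINE2 followed a course similar to that of PLAU with smaller changes. PLAT and SERPINB2 lay near the background on every array.

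The promoters of the 3 genes that changed with time are shown. The 250 bases before the start of transcription were taken from RefSeq (GRCh38.p14). Windows of 4 of the 5 members, with 6 starts, were used, and PLAT was left out. PLAUR has 1 listed start, and for PLAU and SERPINE2, which have several, the start with the most motif matches is given. The sequences run 5′ to 3′ on the gene's strand. Capitals mark matches on either strand to 4 motifs: the AP-1 motif TGANTCA, the ETS motif AGGAAG, the SP1 motif GGGCGG and the TATA motif TATAAA. None of the marked matches overlap.
PLAUR (chr19:43670170-43670419, minus strand): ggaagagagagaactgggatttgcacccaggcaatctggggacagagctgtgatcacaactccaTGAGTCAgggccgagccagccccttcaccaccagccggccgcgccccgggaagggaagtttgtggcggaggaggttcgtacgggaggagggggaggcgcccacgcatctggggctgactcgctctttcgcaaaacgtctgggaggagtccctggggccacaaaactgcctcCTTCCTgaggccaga
PLAU (chr10:73910882-73911131, plus strand): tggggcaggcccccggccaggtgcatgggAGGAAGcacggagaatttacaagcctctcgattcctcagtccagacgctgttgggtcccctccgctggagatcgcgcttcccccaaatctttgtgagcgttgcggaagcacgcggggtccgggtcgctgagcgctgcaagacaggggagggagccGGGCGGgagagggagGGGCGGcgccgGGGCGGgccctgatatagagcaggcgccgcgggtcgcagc
SERPINE2 (chr2:224038641-224038890, minus strand): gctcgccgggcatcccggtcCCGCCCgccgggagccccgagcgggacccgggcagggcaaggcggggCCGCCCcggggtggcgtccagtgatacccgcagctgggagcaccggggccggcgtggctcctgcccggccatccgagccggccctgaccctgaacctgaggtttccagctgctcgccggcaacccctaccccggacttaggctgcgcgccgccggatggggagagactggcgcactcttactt
The PLAUR window held an AP-1 match starting 186 bases before the start of transcription and an ETS match starting 15 bases before it. The PLAU window held an ETS match 221 bases before the start and SP1 matches at 66, 51 and 40 bases. The SERPINE2 window held SP1 matches at 230 and 183 bases. The other PLAU start had no match, and the other SERPINE2 start had 1 SP1 match. The SERPINB2 window held an AP-1, an ETS and a TATA match. Among 34943 human promoter windows of this length, 6.59% held the AP-1 motif, 28.7% the ETS motif, 42.5% the SP1 motif and 10.8% the TATA motif. Those windows were not picked by their matches, unlike the PLAU and SERPINE2 windows shown. The matches describe letters in the reference sequence, and binding was not measured. Any part of these motifs in the courses of the genes was not tested.

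**Figure D1:**
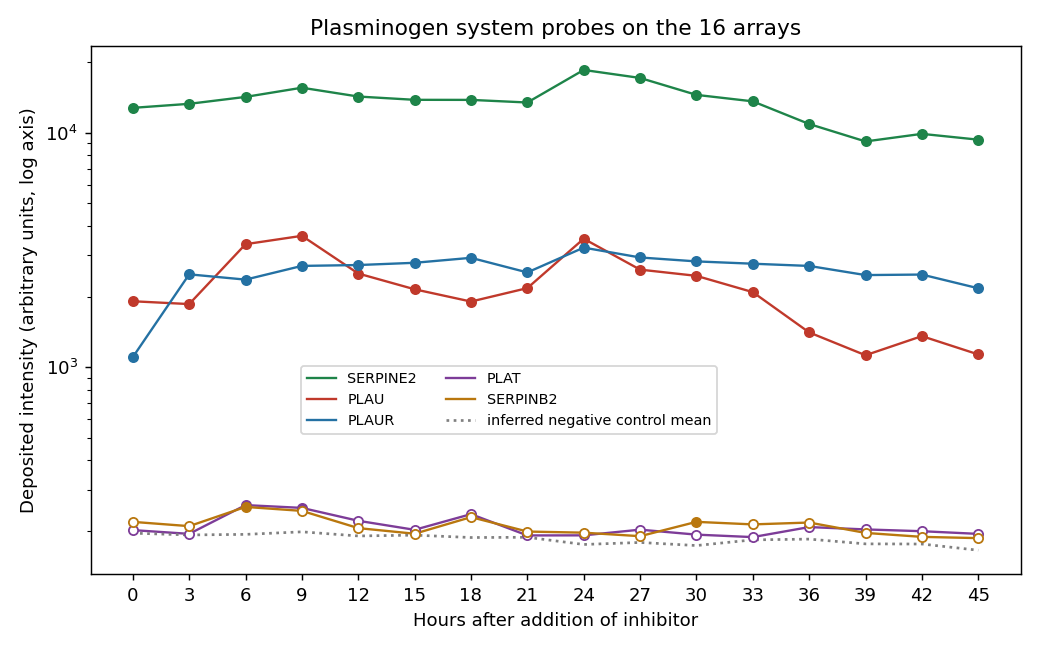
Deposited intensity (arbitrary units, log axis) of the 5 member probes on each of the 16 arrays against hours after addition of the inhibitor. Filled points have a detection p under 0.05, open points do not, and the dotted line is the negative control mean inferred for each array. PLAU, PLAUR and SERPINE2 are filled throughout, while PLAT and SERPINB2 lie between 187 and 258 with 2 filled points each.

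Before the courses are described in detail, the arrays themselves need a description. The median intensity per array was 210 to 254, the inferred negative control mean was 166 to 199, and 10325 to 10889 rows were detected per array. The negative control mean was 188 at 21 hours and 175 at 24 hours, where several members rose. The markers listed for basal mammary epithelium included CDH1, which is not particular to basal cells. KRT5, KRT17, KRT6B, CDH1 and CDH3 were detected on all 16 arrays, CDH1 at an intensity of only 225 to 319. ITGB4 was detected on 16 by 1 probe and 5 by the other. TP73L (the gene for p63) was detected on 10, LAMB3 on 0 and 4 and KRT14 on 1. The LAMB3 probe that passed detection on 0 arrays had an intensity of 1658 to 4132, so its detection p does not show absence. The 11 probes of the basal list summed to an intensity of 69518 to 105201 in the first 4 arrays and 70829 to 85329 in the last 4. Between these groups KRT6B fell by 1.68 on the log2 scale (adjusted p = 2.6e-07, limma), KRT17 rose by 0.69 (adjusted p = 0.042) and the brighter ITGB4 probe rose by 1.24 (adjusted p = 1.5e-06). TP73L, at background throughout 0 to 9 hours, rose at least 2.55-fold (adjusted p = 6.7e-07). Of the fibroblast markers, COL1A1, COL1A2, COL3A1, LUM and PDGFRB were detected on 0 arrays and the 3 DCN probes on 0, 2 and 5, and the 8 probes summed to 1525 to 1617 in the first and 1349 to 1554 in the last 4 arrays. Of the leukocyte markers, CD3E and CD79A were detected on 0 arrays and the 3 PTPRC probes on 0, 2 and 5, while CD14 was detected on 12 and CD68 on 16. The 7 leukocyte probes summed to 1867 to 2301 in the first and 2350 to 2662 in the last 4 arrays. CD68 rose by 0.68 (adjusted p = 0.0027, limma), and CD14, likewise at background from 0 to 9 hours, rose at least 2.73-fold (adjusted p = 1.3e-07). Of the endothelial markers, CDH5 and VWF were detected on 0 arrays, TEK on 2 and PECAM1 on 15. PECAM1 rose by 0.84 (adjusted p = 0.0003, limma), and the 4 probes summed to 790 to 841 and 745 to 868. For a probe not above background, the lowest detected single-probe value of each array, or the probe's own if higher, stood in for the dim side. The part of these markers in the members' changes was not tested.

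To compare arrays, intensities were background corrected, quantile normalized and put on the log2 scale. Time was tested with limma over all 11957 probes detected on at least 3 arrays. A smooth curve (a natural cubic spline with 3 degrees of freedom) tested whether a probe changed over the 16 time points at all. Means of consecutive time points, 4 in a group or 2 in a group for the earliest change, were then compared. The time points of a group are not replicates of a condition, and the spread within a group also holds the change within it. Adjusted p-values are from limma with Benjamini-Hochberg adjustment over all tested probes, with calls under 0.05. A change in RNA per cell and a change in the share of cells that express a gene cannot be told apart in these whole-culture samples.

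By the curve, all 3 members tested changed with time, with adjusted p-values of 0.0025 for PLAU, 0.0135 for PLAUR and 0.00049 for SERPINE2 (limma). The same test called 54.7% of all probes, so that a call alone does not set the members apart, and their courses are given in place of it.

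Of the activators, PLAU, which encodes the protease urokinase, had an intensity of 1124 at its lowest, a median of 2118 and 3630 at its highest. In the first 4 arrays (0, 3, 6 and 9 hours) its intensities were 1910, 1858, 3344.5 and 3630. From 12 to 21 hours they were 2507, 2148, 1904 and 2173. The early peak lay at 6 and 9 hours, and by 18 hours the intensity was close to that of the untreated cells. After normalization, the log2 value was 10.90 at 0 hours, 10.97 at 15 hours and 10.62 at 18 hours. From 24 to 33 hours the intensities were 3529, 2605.5, 2451 and 2089. From 36 to 45 hours they were 1407, 1124, 1356 and 1133. The last 4 values lay below all 12 earlier ones, and those from 24 to 33 hours overlapped with the earlier groups.

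On the normalized log2 scale, PLAU ran from 11.78 at 9 hours to 10.02 at 39 hours, a 3.40-fold range. The means of the successive groups were 11.31 ± 0.49 (0 to 9 hours), 10.93 ± 0.23 (12 to 21 hours), 11.13 ± 0.33 (24 to 33 hours) and 10.13 ± 0.09 (36 to 45 hours), as mean ± SD of 4 time points each. The last 4 time points were 2.25-fold lower than the first 4 (log2 change -1.17, SE 0.20, adjusted p = 0.00022, limma). Between 0 and 3 hours and the final pair of arrays (42 and 45 hours), which leaves out the early peak, the log2 change was -0.71. The fall lay between the last groups: from 24 to 33 hours to 36 to 45 hours PLAU fell by 1.00 on the log2 scale (SE 0.20, adjusted p = 0.00065). The early peak passed the test as well, with 6 and 9 hours higher than 0 and 3 hours by 0.85 (SE 0.15, adjusted p = 0.0006).

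Between adjacent arrays, the increase of PLAU from 3 to 6 hours was 1.76-fold. Of all tested probes, 3.98% rose by at least 1.7-fold over that step, and 378 rose more than PLAU. The increase from 21 to 24 hours was 1.57-fold, and 133 of 11957 probes (1.11%) rose more over that step. From 33 to 36 hours the signal fell by 0.67 on the log2 scale, and 533 probes (4.46%) fell more. Such steps rest on 1 array on each side and have no test.

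The other activator gene, PLAT, encodes tPA. Its intensity was 188.6 at the lowest (33 hours), 202.3 at the median and 258.2 at the highest (6 hours). It passed detection on 2 of the 16 arrays, those of 6 and 9 hours where PLAU also peaked, and so was not among the probes tested. The lowest intensity with a detection p under 0.05 was between 201 and 248 on these arrays, so that a level below it could not be told from background.

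PLAUR, the gene for the urokinase receptor, had an intensity of 1104 at its lowest, a median of 2702 and 3234 at its highest. The lowest value was that of the untreated array, and the 15 treated arrays lay between 2170 and 3234 without overlapping it. At 3, 6 and 9 hours the intensities were 2487.5, 2362 and 2702. On the log2 scale PLAUR was 9.97 at 0 hours and 11.33 at 3 hours, a 2.55-fold increase. Only 58 probes (0.485%) rose more over that step, and 2.86% of the tested probes rose by at least 1.7-fold. From 3 to 45 hours the log2 values then stayed between 11.13 and 11.46, the highest at 24 hours.

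Since the rise of PLAUR was complete by 3 hours, it fell inside the first group of time points and the comparisons of groups did not detect it. The group means were 10.95 ± 0.65, 11.29 ± 0.08, 11.31 ± 0.10 and 11.22 ± 0.07 (SD, 4 time points each). The last 4 time points differed from the first 4 by 0.27 (SE 0.20, adjusted p = 0.34, limma), and by -0.06 with the 0 hour array left out. The log2 difference of 6 and 9 hours from 0 and 3 hours was 0.60 (SE 0.25, adjusted p = 0.10). The call of the curve also rested on the untreated array, since without it the adjusted p was 0.60. The rise of PLAUR is thus a difference between 1 untreated array and the 15 treated ones, and the only untreated array has no second measurement.

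**Figure D2:**
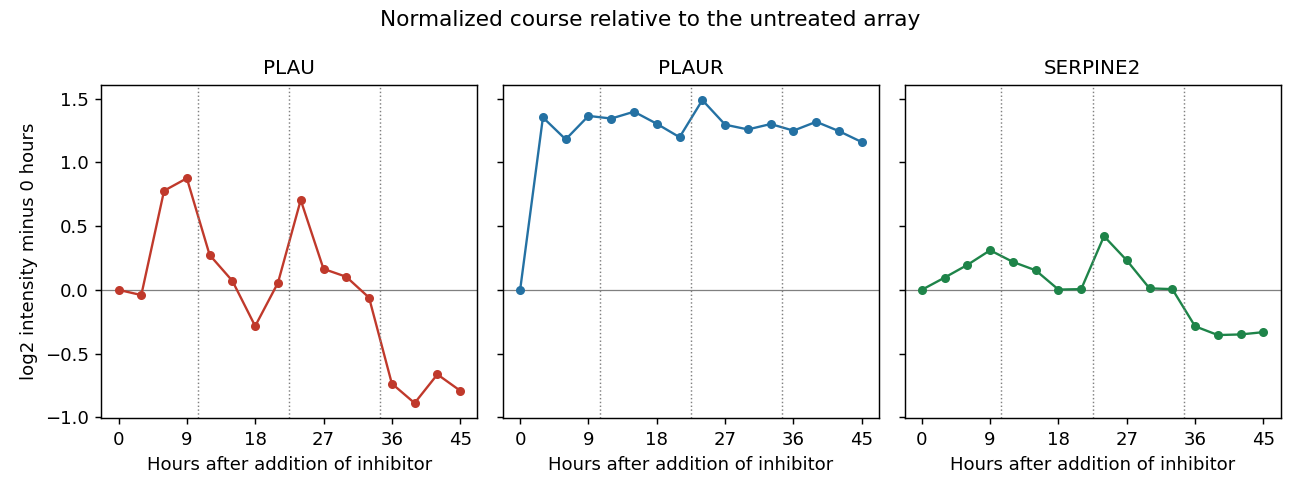
Normalized log2 intensity minus the value at 0 hours, against hours after addition of the inhibitor, for PLAU, PLAUR and SERPINE2; points are single arrays and dotted lines separate the groups of 4 time points. PLAUR is up by 1.35 at 3 hours and stays there, while PLAU and SERPINE2 peak at 9 and 24 hours and fall at 36 hours.

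Of the inhibitors, SERPINE2 encodes protease nexin 1, a secreted serpin that blocks urokinase, tPA, plasmin and thrombin. Its intensity was 9169 at the lowest, 13692 at the median and 18501 at the highest. In the first 4 arrays the values were 12752, 13267, 14199 and 15540, and from 12 to 21 hours they were 14251, 13798, 13790 and 13441. At 24 hours the intensity was 18501, followed by 17103, 14485 and 13593 up to 33 hours. From 36 to 45 hours the values were 10883, 9169, 9879 and 9332. As for PLAU, the last 4 values were the lowest of the 16 and did not overlap with any earlier one.

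On the normalized log2 scale the range of SERPINE2 was 1.71-fold. The group means were 13.80 ± 0.13, 13.74 ± 0.11, 13.81 ± 0.20 and 13.32 ± 0.03 (SD, 4 time points each). The last 4 time points were 1.40-fold lower than the first 4 (log2 change -0.48, SE 0.09, adjusted p = 0.00037, limma). The fall between 24 to 33 hours and 36 to 45 hours was of the same size (log2 change -0.50, SE 0.09, adjusted p = 0.00019). From 21 to 24 hours SERPINE2 rose 1.33-fold, and 612 probes (5.12%) rose more. At 6 and 9 hours it was higher than at 0 and 3 hours by 0.20 (SE 0.07, adjusted p = 0.0485), a call that was lost in 17 of 25 alternative treatments of the data.

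SERPINB2 encodes PAI-2, an inhibitor of urokinase and tPA that is mostly retained inside the cell. Its intensity was 186.7 at the lowest (45 hours), 208.0 at the median and 253.6 at the highest (6 hours). It passed detection on 2 of the 16 arrays, those of 6 and 30 hours, and was not tested. The highest value was on the same array as that of PLAT, and neither probe was bright enough for a course to be read.

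Among the 3 members tested, 2 were lower in the last than in the first 4 time points and none was higher, where 15% of all tested probes were lower and 16.2% were higher. Both were also lower at 36 to 45 than at 24 to 33 hours, as were 18.7% of all probes. At 6 and 9 hours 2 of the 3 were higher than at 0 and 3 hours, against 13.2% of all probes. Between 0 to 9 and 12 to 21 hours limma called 0 of the 3, and 0 had an unadjusted p under 0.05, while 29.5% of all probes changed. Between 12 to 21 and 24 to 33 hours limma again called 0 of the 3, with 0 at an unadjusted p under 0.05, and it called 3 of all probes (0.0251%). The groups of 24 to 33 hours held both the 24 hour peak and the decline after it. With 3 members, these counts describe the genes and were not tested against the background.

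**Figure D3:**
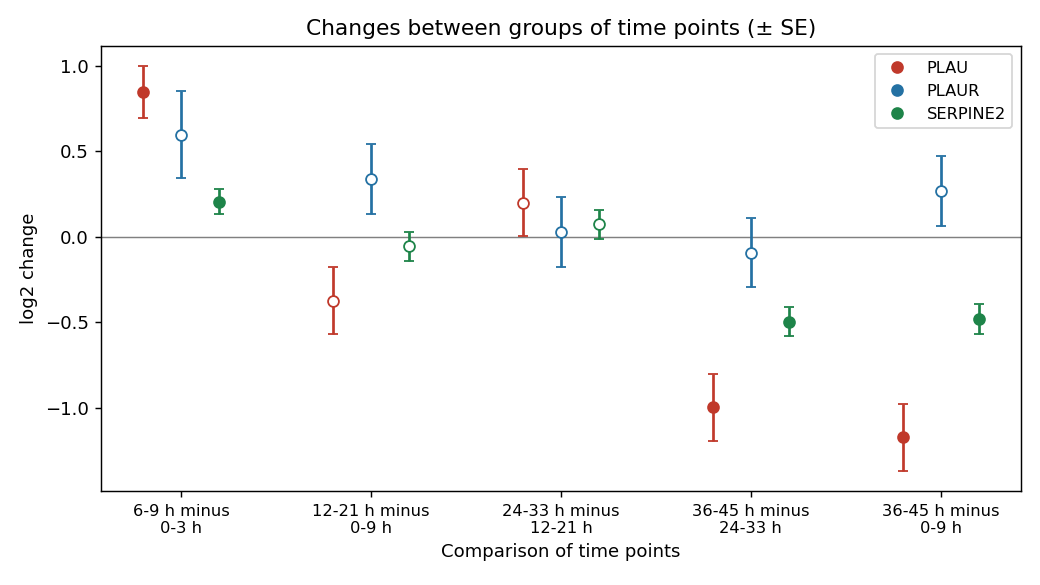
Log2 change of PLAU, PLAUR and SERPINE2 in 5 comparisons of groups of time points; points are limma estimates, bars are ± SE and filled points have an adjusted p under 0.05. PLAU and SERPINE2 are filled for 6 and 9 hours and for both comparisons that involve 36 to 45 hours, with PLAU the larger each time (-1.17 against -0.48 for the last against the first 4), and PLAUR is open in all 5.

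Across the 16 arrays, the normalized values of PLAU and SERPINE2 had a Pearson's r of 0.94 and a Spearman's rho of 0.92. PLAU and PLAUR had an r of 0.09 and a rho of 0.32, and PLAUR and SERPINE2 an r of 0.17 and a rho of 0.55. Both r values of PLAUR rest largely on the untreated array, where it was far lower than on the others. These values describe 16 consecutive time points that share arrays and a normalization, and they are not independent samples. Thus the protease and the extracellular inhibitor had similar courses, while the receptor did not share the decline at 36 hours.

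Over all tested probes, the 5 most like PLAU by Pearson's r over 16 arrays were SPCS2 (r = 0.943), MGC39900 (0.942), RQCD1 (0.941, now CNOT9), SERPINE2 (0.937) and CXorf26 (0.927, now PBDC1). For SERPINE2 they were C16orf61 (r = 0.952, now CMC2), DPM2 (0.939), MIS12 (0.939), FAM54A (0.938, now MTFR2) and PLAU (0.937). PLAU and SERPINE2 were thus among the 5 probes most like each other. For PLAUR they were LRRC8E (r = 0.945), ANGPTL4 (0.925), IL4R (0.901), ERCC1 (0.893) and MYC (0.893). The log2 value of PLAUR was 9.97 on the untreated array and 11.13 to 11.46 on the treated ones. Its r values therefore rest largely on the untreated array, and a shared course after it cannot be read from them.

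The other genes around the system were described by 6 lists of 85 symbols, of which 82 were on the array and 58, with 61 probes, were tested. Of the 61 probes, 43 passed the curve test, 20 were higher in the last than in the first 4 time points and 10 were lower, where the shares over all tested probes were 54.7%, 16.2% and 15%. PLG, which encodes plasminogen itself, was not detected on any array, with an intensity of at most 183.5.

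Of 9 probes for plasminogen receptors and cofactors, 2 were higher and 3 lower, with a median log2 change of -0.04 against -0.02 for all tested probes. ANXA2, which encodes the plasminogen- and tPA-binding annexin A2, fell by 1.12 (SE 0.12, adjusted p = 3.5e-06, limma). ENO1, for the glycolytic enzyme enolase that also binds plasminogen, fell by 0.21, and C9orf46 (now PLGRKT), for a plasminogen receptor, rose by 0.27. The pair of KRT18 probes disagreed in sign (-0.66 and 0.26). The falling probe was dimmer, with a median intensity of 506 against 18909 for the rising one, a row of combined values. Of 5 other inhibitors, SERPINA5, for the protein C inhibitor, rose by 0.72, and SERPINF2, for α2-antiplasmin, fell by 0.67. The SERPINF2 probe was close to background, detected on 14 arrays with an intensity of 211 to 358. The lowest detected intensity per array was 201 to 248. The log2 value of SERPINA5 was 10.05 at 0 hours, 8.66 at 9 hours and 10.42 at 45 hours. LRP1, which encodes the receptor that takes up complexes of urokinase and its inhibitor, was not detected on any array, and VTN, for vitronectin, a ligand of uPAR, was not either.

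Among 16 probes for partners and endocytic receptors of uPA and uPAR, 5 were higher in the last 4 time points and 0 lower, with a median of 0.11. They were FPR1, a formyl peptide receptor (0.86), the integrin genes ITGB5 (0.60), ITGA3 (0.48) and ITGB1 (0.47), and LRPAP1, a chaperone of LRP1 (0.19). The other tested probes of ITGB1 were dimmer and not called, with log2 changes of 0.09 (adjusted p = 0.70, limma) and -0.28 (adjusted p = 0.13). Among 15 probes for other pericellular serine proteases and their inhibitors, 9 were higher and 0 lower, with a median of 0.28. The protease genes KLK7 (0.79), HTRA1 (0.62) and KLK6 (0.49), the inhibitor genes SPINT1 (0.66) and PI3 (0.48), and MST1, for macrophage stimulating protein (1.25), rose. KLK6 first fell by 0.86 between 12 to 21 and 24 to 33 hours (adjusted p = 0.0205, limma). It then rose by 1.69 to 36 to 45 hours. MST1, detected on 11 arrays, had log2 values of 8.41 at 0 hours, 5.77 at 12 hours and 8.51 at 45 hours, so that it ended near its untreated level. ST14, which encodes matriptase, an activator of pro-urokinase, had a log2 change of 0.23 (adjusted p = 0.23). Within the course, some probes were lower at 12 to 21 than at 0 to 9 hours. They were 4 of the 16 partner probes, 6 of the 15 protease and inhibitor probes and 1722 of all 11957 tested probes. Both lists thus also held falls, and these counts were not tested against the background.

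Of 5 probes for other clade B serpins, the family of SERPINB2, 2 rose and 2 fell. SERPINB8 fell by 1.33 and SERPINB5, for maspin, by 0.65, while SERPINB1, an inhibitor of neutrophil proteases, rose by 0.84 and SERPINB6 by 0.19. Of 11 probes for AP-1 and ETS factors, the families whose motifs were searched above, 1 rose and 3 fell. ELF3, for an epithelial ETS factor, rose by 2.17 (SE 0.49, adjusted p = 0.0028, limma), but its log2 value was 11.54 in the untreated cells, 8.73 at 3 hours, 11.39 at 36 hours and 11.73 at 45 hours. FOSL1, for the AP-1 subunit FRA1, fell by 1.77 (SE 0.29, adjusted p = 0.00019), with log2 values of 9.25 at 0 hours and 10.81 at 3 hours. Over the same first step FOS went from 12.24 to 10.13, JUN from 8.05 to 7.09 and ETS2 from 8.72 to 7.82. ETS1 went from 10.83 to 11.26 and ELK1 from 10.54 to 11.03. The remaining tested factors moved less: JUND from 14.49 to 14.50, FOSL2 from 9.34 to 9.22, ETV4 from 8.47 to 8.60 and ETV5 from 8.13 to 8.13. These steps are between single arrays, and the part of these factors in the rise of PLAUR was not tested. Between the first and last 4 time points ETS1 fell by 0.54 and ELK1 by 0.48, and JUN had a log2 change of -0.05 (adjusted p = 0.86).

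**Figure D4:**
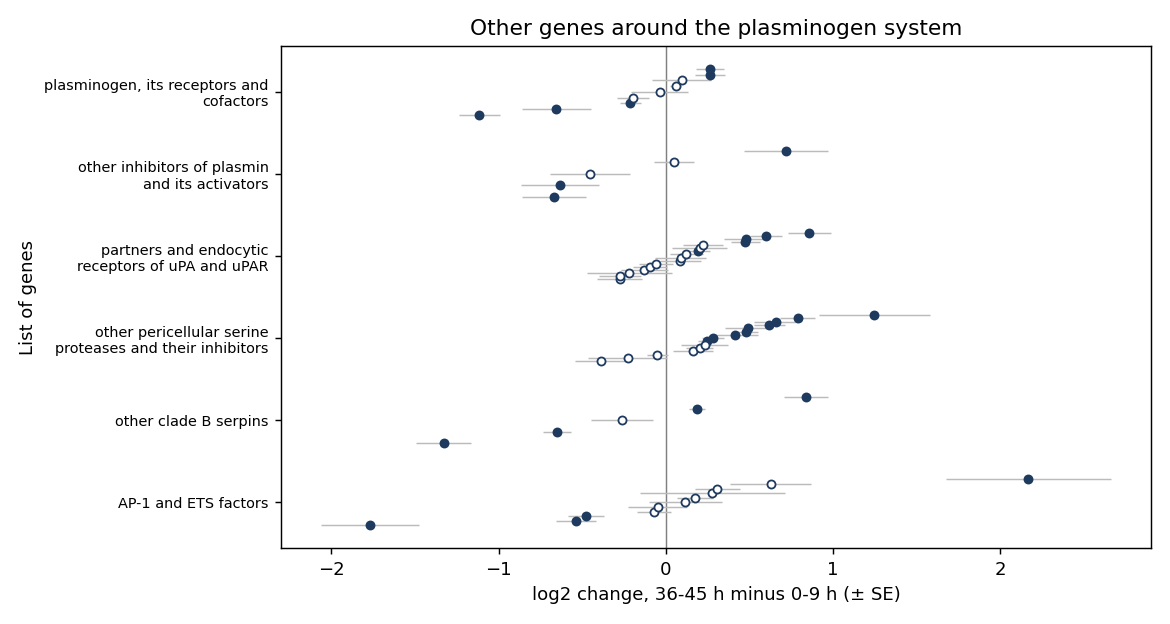
Log2 change, 36 to 45 hours minus 0 to 9 hours, for the 61 tested probes of the 6 lists, 1 point per probe with ± SE; filled points have an adjusted p under 0.05. The filled points lie on both sides of 0 in 4 lists and only above 0 in the lists of uPA and uPAR partners (5 of 16) and of other pericellular proteases and inhibitors (9 of 15).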

How the data were processed

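Per the labels and the study's methods, total RNA from 16 cultures was labelled with biotin and hybridized to Illumina human Ref8v2 arrays. The authors deposited linear intensity values that had not been normalized, with a detection p-value beside every one. The methods state quantile normalization; the summary software and any background correction are not given in the sources used here. The negative control mean and SD of each array were inferred from the detection p-values of the 19092 single-probe rows (708 negative control beads). The 1497 rows with combined values were left out of that estimate, and their detection p-values are less reliable. limma 3.58.1 in R 4.3.3 was used to correct intensities by normexp with an offset of 16 and to quantile normalize them, and log2 values were taken. Dim probes are compressed by the offset, and the number of arrays limits the precision.

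A probe was tested if its detection p was below 0.05 on 3 or more arrays (11957 probes, 11290 symbols). limma with an intensity trend was fitted on a spline with 3 degrees of freedom, on 4 groups of 4 time points, and on 8 groups of 2. The scripts were tested on simulated data. The members and the gene lists were chosen with earlier results of these data known. All tested members are named. In the other lists, some genes (ST14, FOS, JUN, ETS2, PLG, LRP1, VTN) were added for their role after their values were seen. JUND, FOSL2, ETV4 and ETV5 were added so that every tested AP-1 and ETS factor has its first step. The rest were named if past the last against first test, up to 6 a list by size. A gene that this rule names is not reported here. Alternatives were the background correction, normalization, filter, form of the time course, grouping and leaving out each array. Figures were drawn with matplotlib 3.10.9.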

Additional observations from a re-analysis of the deposited data

Results flagged for a closer look

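For PLAUR the untreated array stood apart from the other arrays of its group of 4 time points. Its log2 value was 9.97 and those of 3, 6 and 9 hours were 11.16 to 11.34, so that the gap made up 0.865 of the whole range of the group. In a group of 4 such a gap is reached by chance in about 1 group in 20, and 12 groups were examined. The array was also the only untreated one.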

How the results depend on the processing

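The log2 changes of PLAU and SERPINE2 between the first and last 4 time points kept their direction and their call under all 11 other settings and without each array. They ranged from -1.32 to -1.02 for PLAU and from -0.53 to -0.43 for SERPINE2 without 1 array, and the fall after 24 to 33 hours also kept its call. The count of members changed at 6 and 9 hours went from 2 to 1 with median scaling, with cyclic loess, without the intensity trend and with only the arrays compared, and was 1 to 3 without 1 array. Where the count was 1, SERPINE2 had lost its call, and the count of 3, without 3 hours, included PLAUR. With no filter on detection the count was again 2, but these were PLAU and PLAT, whose probe was not above background at 0 and 3 hours. With a straight line in place of the curve, 11 of the 61 other probes were called in place of 43, and the adjusted p of PLAUR was 0.36. Without 1 array, the change of PLAUR between the first and last groups was -0.0563 (without 0 hours) to 0.40, and at 6 and 9 hours it was -0.08 (without 0 hours) to 1.27 (without 3 hours, adjusted p = 3.1e-07). Comparing 3 to 9 with 36 to 45 hours gave -0.0563 for PLAUR. From 12 to 21 to 24 to 33 hours the range was -0.0253 to 0.0547 for PLAUR and -0.0122 to 0.13 for SERPINE2, and SERPINE2 changed by 0.0494 from 0 to 9 to 12 to 21 hours with median scaling. None of these small changes had passed the test. Steps between adjacent arrays under other normalizations, chosen after seeing the data, kept their direction (0.61 to 0.83 for PLAU from 21 to 24 hours, 1.22 to 1.37 for PLAUR from 0 to 3 hours). A block for the slide was not run, as neither the labels nor the headers name slides.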
